A study of Mus musculus with 8 samples.

Results

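Ly6Chi monocytes with a knockout of Upf2 were compared with control Ly6Chi monocytes in 4 of the 8 libraries of a series on intron retention in the mouse monocyte lineage. The members were taken by the labels: 2 libraries of Ly6Chi monocytes whose treatment is given as a knockout of Upf2, with the genotype tag LyC6hi_KO, and 2 libraries of untreated Ly6Chi monocytes, described as FL_FL, with the genotype tags Ly6Chi_WT and LyC6hi_WT. They are called knockout 1 and 2 and control 1 and 2 here, by the numbers of the labels. FL_FL is the usual way to write a pair of floxed alleles, which can be cut out by Cre recombinase. The Cre driver, the age of the mice and whether the knockout mice were littermates are not given in the sources used here. All samples are labelled healthy, from BM (bone marrow) and grown as primary cells, while the cell type tag of the same samples reads monocytic cell line. The labels do not say whether replicates are different mice. The spread behind each p-value is therefore that of the sequenced samples, and may be only technical.

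UPF2 belongs to the core of NMD (nonsense-mediated decay), the surveillance pathway that degrades messenger RNA whose stop codon lies upstream of a splice junction by more than a short distance. UPF2 bridges UPF3, which sits on the exon junction complex left behind by splicing, and the helicase UPF1, which is bound at the terminating ribosome. Retained introns and poison exons often bring in such early stop codons, and many splicing factors limit their own level through an exon of this kind. Ly6Chi monocytes are the inflammatory monocytes that leave bone marrow for inflamed tissue.

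Polyadenylated RNA was sequenced as read pairs of 100 bp from RNA with an integrity number over 7. Depth is known from the intron tables: the 4 libraries hold 31388146 to 34202084 reads spliced exactly from end to end of a listed intron. Over the 13126 genes tested for expression, log2(TPM + 1) correlated at r = 0.988 between the controls and at r = 0.987 between the knockouts, and at r = 0.968 and 0.981 between control and knockout of the same number; genes are not independent replicates. TPM (transcript abundance scaled to the same total in every library) is per transcript length. Junction reads leaned further to the 3′ end in the knockout libraries. Over 5920 genes with at least 6 introns, the median log2 ratio of spliced reads at the last 3 introns to those at the first 3 was 0.636 and 0.691 in the controls and 1.18 and 0.902 in the knockouts, so the groups did not overlap. This measure, called 3′ lean below, also reached 0.913 and 1.25 in the 2 libraries labelled cMOP, common monocyte progenitors (cMoP), which carry the FL_FL description. Since it moves with the groups, results below are also given with the lean as a covariate, an alternative chosen after seeing the data for splice choice and retention. Whether the RNA, the library or the knockout set it cannot be told apart.

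The targeted gene was checked first. The labels name a quantitative PCR from exon 2 to exon 3 of Upf2, and both primers match the full-length GENCODE M21 transcript of Upf2 (GRCm38, the mm10 build) once each, with an amplicon of 126 bases. They are shown 5′ to 3′ because they mark the stretch that the labels' PCR probes.
Upf2 forward primer: ggctgctcagctgaaagaga
Upf2 reverse primer: ttttcctctggtcggttgtc
The 2 joins of exon 3 are shown with the last 30 bases of the upstream exon in lower case and the first 30 of the downstream exon in capitals, on the plus strand of chromosome 2.
Upf2 exon 2 to exon 3: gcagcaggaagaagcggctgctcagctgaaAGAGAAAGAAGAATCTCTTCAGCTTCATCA
Upf2 exon 3 to exon 4: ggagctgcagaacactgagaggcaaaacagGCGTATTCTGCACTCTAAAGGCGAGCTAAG
The transcript has 22 exons and 3807 coding bases, of which exon 2 (chr2:5957471-5957850), where coding starts, and exon 3 (chr2:5960933-5961712) together hold 1142, or 30.0%.

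Both joins were scarce in the knockout. Exact reads from exon 1 to exon 2 numbered 42 and 45 in the controls and 2 and 12 in the knockouts. From exon 2 to exon 3 there were 41 and 45 reads in the controls and 10 and 13 in the knockouts. From exon 3 to exon 4 there were 90 and 63 in the controls and 13 and 34 in the knockouts. The next junction, exon 4 to exon 5, had 90 and 101 reads in the controls and 49 and 95 in the knockouts, and overlapped between groups. Reads from exon 2 to exon 3 came to 47.1% and 59.2% of the median of the 19 Upf2 junctions that leave exon 3 or a later exon in the controls and to 13.3% and 14.8% in the knockouts. The means were 53.2% ± 8.54 (SD, n = 2) and 14.1% ± 1.02 (SD, n = 2), and the exact permutation test (two-sided) gave p = 0.333, the smallest that 2 against 2 can give. That median includes the junction from exon 3 to exon 4, and without it, an alternative chosen after seeing the data, the shares were 48.2% and 58.8% in the controls and 12.7% and 14.2% in the knockouts. This share moves with the lean: it was 41.8% and 21.6% in the cMoP libraries.

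**Figure D1:**
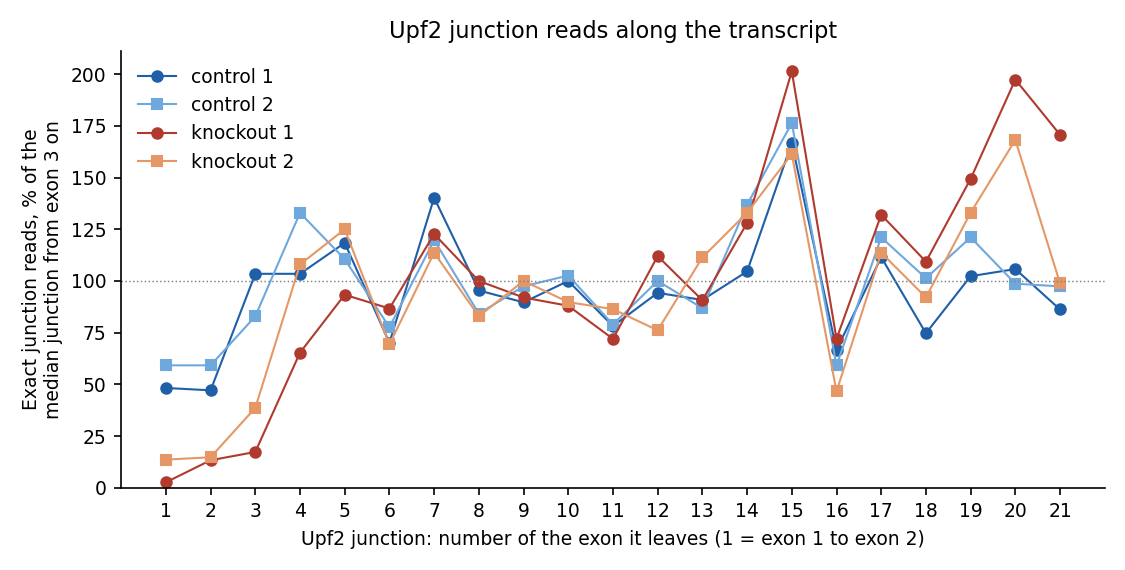
Exact junction reads at each of the 21 junctions of Upf2 (horizontal axis, number of the exon left), as a percentage of the library's median over the junctions from exon 3 on (vertical axis), with 1 line per library. Both knockout libraries lie below both controls at the first 3 junctions, with 13.3% and 14.8% against 47.1% and 59.2% from exon 2 to exon 3, while at the last 3 junctions both knockouts lie above both controls.

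A ratio taken at a single splice site does not compare the 2 ends of the transcript. Of the reads spliced into exon 4, 2 of 92 (2.17%, Wilson 95% interval 0.598 to 7.58) and 1 of 64 (1.56%, 0.276 to 8.33) came from an exon other than exon 3 in the controls. In the knockouts they were 13 of 26 (50%, 32.1 to 67.9) and 32 of 66 (48.5%, 36.8 to 60.3). These intervals cover counting error only. Reads that left exon 1 for an exon other than exon 2 numbered 3 and 1 in the controls and 12 and 26 in the knockouts, close to the numbers entering exon 4 from elsewhere. The knockout libraries thus hold transcripts that pass over exons 2 and 3 beside transcripts that keep exon 3. In edgeR's quasi-likelihood test across introns, described next, the reads from exon 3 to exon 4 fell relative to reads using exon 4 otherwise by 5.49 on the log2 scale (SE 0.64, adjusted p = 0.000112), and the call held with the lean as a covariate (adjusted p = 0.0053). The whole-gene level of Upf2 did not show the deletion: TPM was 20.2 and 18.2 in the controls and 20.4 and 22.5 in the knockouts (limma adjusted p = 0.597). Intact reads from cells that kept an allele and from cells of another type cannot be told apart in bulk RNA, and neither can fewer cells of a type and less RNA per cell.

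Splice choice was tested at 18263 introns of 5794 genes, to see which introns were joined to another partner in the knockout. For each intron, the exact share is the number of reads joining its 2 ends as a percentage of the reads spliced at its busier end. Of all introns tested, 60 in 41 genes passed edgeR's test at an adjusted p under 0.05 (0.329%); the exact share fell at 40 (0.219%) and rose at 20 (0.11%). At all 60 both knockout values lay on 1 side of both controls, which a choice by small p in these same libraries favours. Of all introns tested, 20.6% had both knockouts above and 24.0% both below. With the lean as a covariate 9 introns passed, 8 of them among the 60, and these 8 lie in Tmpo, Zfp207, Upf2 and Dnase1l1. DESeq2 called 8 introns, all among the 60. Each of the 60 kept its direction in every alternative in which it was tested.

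The cassette exons behind the calls in Tmpo and Zfp207, and those of 2 splicing factors, are shown because the reads turn on whether they are kept. Each line gives, 5′ to 3′ on the gene's own strand, the exon in capitals with 15 bases of either neighbouring exon of the transcript in lower case, from GENCODE M21 transcripts on GRCm38. The Zfp207 exon is exon 6 of 11 in its transcript (chr11:80389774-80389821, plus strand, 48 coding bases). The Tmpo exons are exons 5 and 6 of 9 (chr10:91153278-91153397, 120 bases, and chr10:91153085-91153180, 96 bases, minus strand), all coding and all a multiple of 3 in length. Exon 6 of 25 in Rbm5 (chr9:107759776-107759849, minus strand) has 74 coding bases, which is not a multiple of 3.
Zfp207 exon 6: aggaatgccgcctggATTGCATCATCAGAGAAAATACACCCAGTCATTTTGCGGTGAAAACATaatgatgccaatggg
Tmpo exon 5: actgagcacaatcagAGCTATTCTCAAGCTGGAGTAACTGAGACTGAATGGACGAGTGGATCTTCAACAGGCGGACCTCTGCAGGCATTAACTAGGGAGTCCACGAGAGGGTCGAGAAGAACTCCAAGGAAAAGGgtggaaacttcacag
Tmpo exon 6: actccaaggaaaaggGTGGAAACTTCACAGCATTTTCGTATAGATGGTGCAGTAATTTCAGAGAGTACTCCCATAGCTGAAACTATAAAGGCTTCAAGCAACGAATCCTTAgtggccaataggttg
Rbm5 exon 6: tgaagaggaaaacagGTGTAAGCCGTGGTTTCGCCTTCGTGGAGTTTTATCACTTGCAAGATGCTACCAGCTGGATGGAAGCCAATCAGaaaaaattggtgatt

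Exons of Tmpo and Zfp207 were skipped more often in the knockout. Tmpo encodes the lamina-associated polypeptides of the inner nuclear membrane. The junction that passes over its exons 5 and 6 (chr10:91152739-91158747) took 4.14% and 3.62% of the reads in the controls (109 of 2636 and 108 of 2987) and 17.2% and 17.9% in the knockouts (426 of 2479 and 454 of 2532). It rose by 2.40 on the log2 scale relative to other junctions (SE 0.26, adjusted p = 3.6e-05; 6.97e-05 with the lean). The Tmpo share ran from 3.40% to 10.7% in the other libraries of the series, below both knockouts and in part above both controls. Zfp207 encodes BuGZ, a zinc finger protein that binds the mitotic checkpoint protein BUB3. Its junction over exon 6 (chr11:80389331-80391330) took 0.730% and 1.02% in the controls (7 of 959 and 9 of 879) and 8.19% and 10.01% in the knockouts (80 of 977 and 111 of 1109). This junction rose by 3.49 (SE 0.45, adjusted p = 0.000247; 0.00374 with the lean). In the other libraries of the series the Zfp207 share ran from 1.72% to 5.15%, below both knockouts and above both controls. In Dnase1l1, a relative of DNase I, the junction at chrX:74273692-74277038 took 2.68% and 1.45% in the controls and 11.99% and 13.8% in the knockouts (log2 2.83, SE 0.36, adjusted p = 0.000247; 0.00356 with the lean). The Dnase1l1 share ran from 1.37% to 11.1% in the other libraries, close to knockout 1 at its upper end. The Tmpo and Dnase1l1 introns are marked in the knockout tables as near an antisense gene.

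At the other introns of smallest p, 1 per gene, the call was lost with the lean as a covariate (adjusted p from 0.152 to 0.945). The exact share of an Ahnak intron (chr19:9000864-9001698) was 82.7% and 76.1% in the controls and 21.2% and 39.5% in the knockouts (log2 difference of 3.12 in size). Ahnak encodes a very large scaffold protein, and the lean was itself measured on spliced reads. Sp100, an interferon-inducible protein of nuclear bodies, used its intron at chr1:85679110-85694258 in 4.26% and 5.83% of reads in the controls and in 14.95% and 14.86% in the knockouts (adjusted p = 0.00104). Hmbox1, a homeobox protein that binds telomeres, joined an intron on chromosome 14 in 24.1% and 32.0% of control reads and in 75.4% and 63.1% of knockout reads (adjusted p = 0.00613). Prkcb, a protein kinase C gene with alternative 3′ exons, used the nearer acceptor in 84.8% and 80.5% of control reads and in 50.6% and 63.7% of knockout reads (adjusted p = 0.0118). Sun1, a nuclear envelope protein, kept an exact share of 94.3% and 92.5% in the controls and 79.1% and 78.4% in the knockouts (adjusted p = 0.00394). Smaller shifts in share passed in Pld4, an endolysosomal nuclease, with 95.2% and 95.3% against 97.7% and 97.7%, and in Parp8, with 99.0% and 98.8% against 94.7% and 93.5%. With the lean the size of the log2 difference moved little in some of these introns, from 1.95 to 1.83 in Sun1, from 2.498 to 2.32 in Parp8, from 1.73 to 1.48 in Sp100 and from 1.11 to 0.91 in Pld4. It moved further in the others, from 2.51 to 1.73 in Hmbox1, from 1.79 to 0.83 in Prkcb and from 3.12 to 1.42 in Ahnak.

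**Figure D2:**
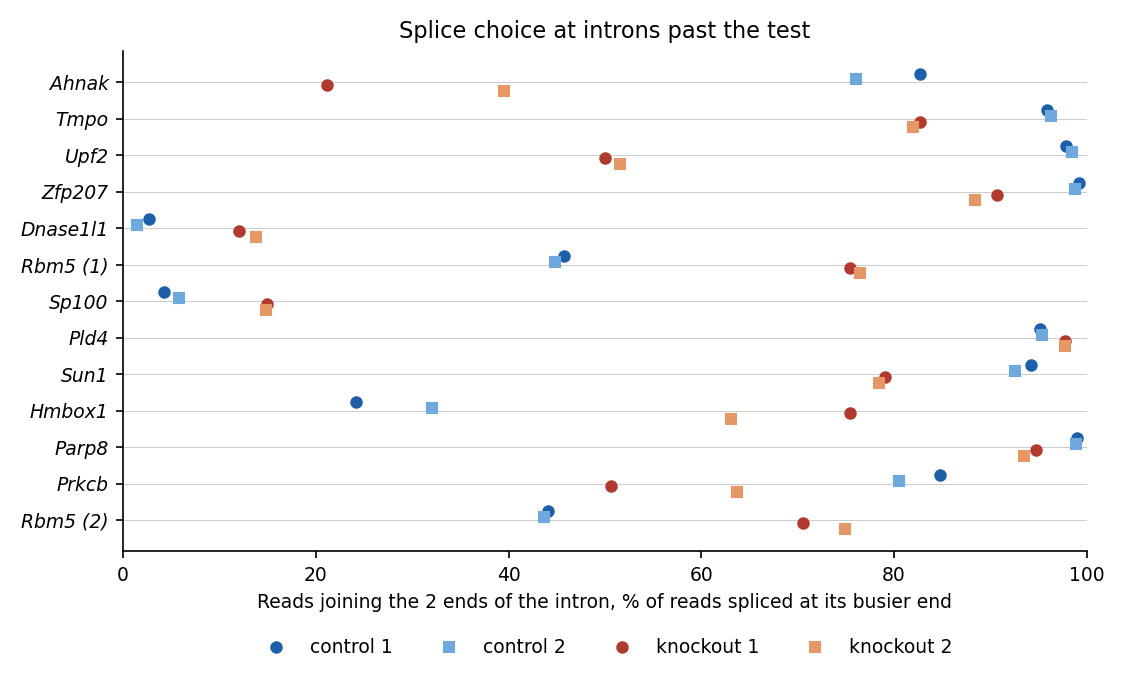
Exact share (horizontal axis, reads joining the 2 ends of the intron as a percentage of reads spliced at its busier end) of the 13 named introns (rows), with 1 point per library. Controls are blue and knockouts red or orange. The rows were chosen by p, which favours groups that do not overlap, and in no row do they overlap. In Ahnak the knockouts lie at 21.2% and 39.5% against 82.7% and 76.1%.

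Among splicing factors that carry poison exons, Rbm5 was the gene with introns past the test. Rbm5 is an RNA-binding regulator of exon choice in apoptosis genes, and its exon 6 was kept more often in the knockout. This exon is not shown to be a poison exon. All its 74 bases are coding in the transcript shown above, and leaving it out shifts the reading frame. The intron before the exon had an exact share of 45.7% and 44.8% in the controls and 75.4% and 76.5% in the knockouts (log2 1.93, SE 0.27, adjusted p = 0.00071). The intron after it had 44.1% and 43.7% against 70.5% and 74.9% (log2 1.78, SE 0.27, adjusted p = 0.00196). Neither call held with the lean (adjusted p = 0.505 for both) or with DESeq2 (0.311 and 0.716). The size of the log2 difference was 1.35 and 1.37 with the lean and 1.93 and 1.77 with DESeq2. In the other 4 libraries the share before the exon ran from 57.5% to 72.9%, between the 2 groups. Of the 146 introns tested in 29 genes of this list, these 2 rose and 0 fell past the test, beside 0.11% and 0.219% of all introns tested. In the list 31.5% had both knockouts above both controls and 24.7% both below, beside 20.6% and 24.0% of all introns. Other introns of the list did not reach the threshold. The exact share of the Tra2a intron at chr6:49252516-49263837, which passes over an annotated exon at chr6:49252803-49253108, was 65.6% and 55.0% in the controls and 79.9% and 78.8% in the knockouts (adjusted p = 0.147). That of an Srsf7 intron at chr17:80202745-80204121 was 31.7% and 33.6% against 47.0% and 46.9% (adjusted p = 0.119). In an Snrnp70 intron it was 74.2% and 71.5% against 85.5% and 85.8% (adjusted p = 0.249). Tra2a, Srsf7 and Snrnp70 were chosen after their values were seen. In each of the 3 both knockouts lay above both controls, and with the lean the adjusted p was 0.981, 0.797 and 0.982. The log2 of other to exact reads in Snrnp70 went from -1.15 to 0.17 with the lean. Introns of Tia1 and Hnrnpm, also chosen after their values were seen, went lower. At chr6:86418933-86419100 in Tia1 the exact share was 87.4% and 88.5% against 74.4% and 68.9% (adjusted p = 0.0773). At chr17:33652327-33658387 in Hnrnpm it was 97.6% and 97.6% against 95.1% and 95.2% (adjusted p = 0.12).

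U2af1, the small subunit of the factor that recognises the 3′ splice site, has a pair of mutually exclusive exons of 67 bases. Both are shown in capitals where they differ, at 23 positions, and in lower case at the 44 identical ones (the exon farther downstream, chr17:31651646-31651712, and the one upstream of it, chr17:31652502-31652568, minus strand).
U2af1 downstream exon: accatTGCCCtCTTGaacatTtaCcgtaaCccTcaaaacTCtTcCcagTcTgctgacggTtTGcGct
U2af1 upstream exon: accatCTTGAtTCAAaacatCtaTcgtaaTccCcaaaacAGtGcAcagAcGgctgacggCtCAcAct
The junction that leaves the upstream exon (chr17:31648895-31652501) took 4.27% and 5.04% of the reads in the controls and 13.2% and 10.3% in the knockouts (log2 1.44, SE 0.30, adjusted p = 0.0386), and did not pass with the lean (adjusted p = 0.873). U2af1 was chosen after its values were seen. The progenitor libraries reached 7.01% to 14.95%, so the knockout shares lie within the range of the series.

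Junctions that occur in GENCODE transcripts annotated as NMD targets and in no protein-coding transcript were compared next, since NMD transcripts are degraded by the pathway. There were 94 such introns with enough reads, in 76 genes. Only 15 of them occur in NMD transcripts alone; the others also occur in transcripts of other types, most often processed transcripts (67 introns). In each library the median of the 94 exact shares was 14.04% and 14.8% in the controls and 10.7% and 9.76% in the knockouts. Both knockouts were lower than both controls, and lay among the progenitors, which had medians of 11.7% in MDP and 10.3% and 9.08% in cMoP; Ly6Clo had 16.01%. Reads pooled over the 94 introns made up 8.97% and 8.25% of the reads at the same splice sites in the controls and 5.73% and 6.28% in the knockouts. The introns in Rps18 and Eef1b2 held 38.8% and 41.7% of those reads in the controls and 51.5% and 47.2% in the knockouts. Without these 2 the pooled shares were 14.5% and 14.03% against 11.6% and 11.8%. The median log2 difference of exact to other reads was -0.23 over the 94 introns and -0.19 with the lean, beside -0.03 and -0.05 over the 13669 introns found in protein-coding and in no NMD transcripts. Both knockouts lay above both controls at 13 of the 94 (13.8%) and below at 33 (35.1%), beside 20.6% and 24.0% of all introns tested. A single intron passed edgeR's test: in Cars2, the mitochondrial cysteinyl-tRNA synthetase, the junction at chr8:11542591-11542901 took 22 of 117 and 21 of 116 reads in the controls and 4 of 147 and 9 of 128 in the knockouts (log2 fell by 2.17, SE 0.47, adjusted p = 0.04996; 0.893 with the lean). At an unadjusted p under 0.05, 3 of the 94 introns were higher in the knockout and 14 lower. Over the 13669 introns of protein-coding and no NMD transcripts, 683 were higher and 861 lower at that level. Over all 18263 introns tested, 2122 reached it in either direction. In 2 examples below the threshold, Slc25a38, a mitochondrial carrier, had 54 of 144 and 61 of 169 reads against 37 of 191 and 29 of 133 (adjusted p = 0.0903), and Nemp2 had 9 of 64 and 14 of 95 against 2 of 69 and 1 of 63 (adjusted p = 0.102).

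**Figure D3:**
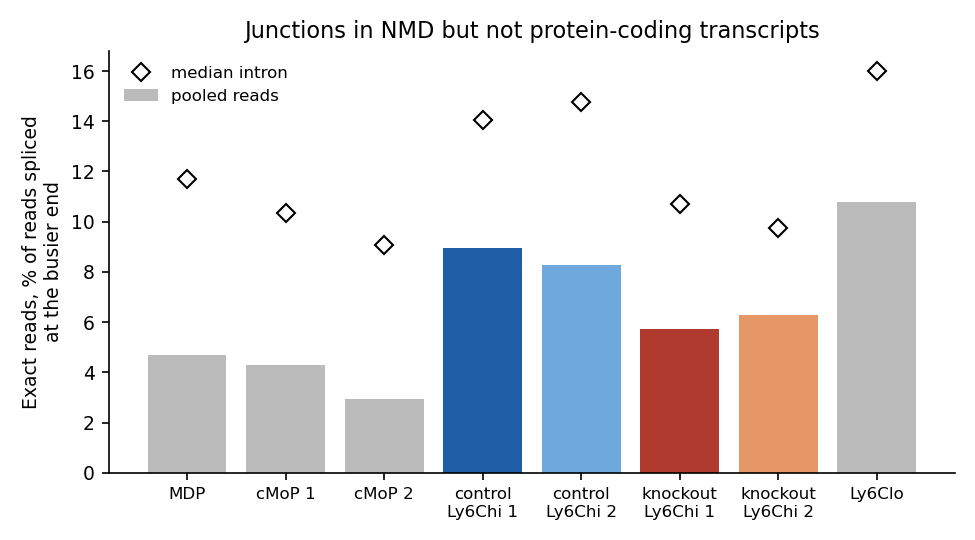
Exact reads of the 94 junctions found in NMD but not in protein-coding transcripts, as a percentage of reads spliced at the busier end of the same introns (vertical axis, bars from 0), for all 8 libraries. Bars pool the reads of all 94 introns and diamonds give the median intron. By both measures the knockouts (bars at 5.73% and 6.28%, diamonds at 10.7% and 9.76%) lie below the Ly6Chi controls (bars at 8.97% and 8.25%, diamonds at 14.04% and 14.8%).

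For gene expression, 13126 genes reached 1 TPM in 2 or more of the 8 libraries and were tested. With limma, 1 gene passed an adjusted p under 0.05 (0.00762%), and 1910 had an unadjusted p under 0.05. Both knockouts lay above both controls in 22.8% of the genes and below in 45.5%. The median gene differed by -0.12 on the log2(TPM + 1) scale, a shift that was 0.07 after centring each library, 0.03 after quantile normalization and 0.06 with the lean. Log2 values below are therefore given relative to the median gene, while p-values belong to the unshifted difference. The gene that passed is Gm27517, a name of the clone type, at 8.51 and 9.83 TPM in the controls and listed at 0 in both knockouts (adjusted p = 0.0323); it is named because it is the only call, and was chosen after its values were seen. It was also listed at 0 in 1 cMoP library, at 0.2 TPM in the other, and at 8.22 TPM in MDP, so its level varies among control libraries. It did not pass with the lean (adjusted p = 0.814), where its relative log2 was -3.25 in place of -3.22.

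Since no other gene passed, the 12 genes of smallest p in each direction, without names of the clone type, are given by their values. They were taken only from genes whose groups did not overlap and whose higher group reached a set mean level. Their adjusted p ran from 0.298 to 0.336. Among those higher in the knockout, Lyz1, a lysozyme gene, was at 22.8 and 30.1 TPM in the controls and 151 and 101 in the knockouts (relative log2 2.31, SE 0.26). Lyz1 has a close paralog, Lyz2, which was at 36103 and 38197 TPM in the controls and 20168 and 19792 in the knockouts, so how reads were shared between the 2 copies is uncertain. Tppp3, a tubulin-binding protein, was at 20.1 and 22.1 TPM against 55.2 and 48.6. Prtn3, the granule protease proteinase 3, was at 245 and 280 TPM against 440 and 408, and Stmn1, a microtubule regulator of dividing cells, at 503 and 496 against 731 and 708. Hsd11b1, which activates glucocorticoids, was at 26.7 and 23.9 TPM against 52.4 and 43.2. In each of these genes both knockouts lay above both controls, as the choice required. The remaining genes of this set were Avpi1, Selm, the ribosomal protein genes Rplp1, Rps21 and Rpl32, and the pseudogenes Rpl23a-ps3 and Rps19-ps6, whose reads can be shared with their parent genes.

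Among the genes lower in the knockout, Siglec1, a sialic acid-binding receptor induced by interferon, was at 11.4 and 14.1 TPM in the controls and 1.77 and 2.98 in the knockouts, a 5.37-fold lower mean. Cd209a, a lectin of dendritic cells and monocytes, was at 16.6 and 16.9 TPM against 2.06 and 4.36, a 5.22-fold lower mean. Pydc4, a pyrin-domain gene, was at 42.0 and 54.4 TPM against 13.98 and 15.96. Hpgd, the enzyme that inactivates prostaglandins, was at 52.0 and 54.8 TPM against 22.4 and 17.8. Adora2a, an adenosine receptor, was at 7.26 and 5.70 TPM against 1.66 and 2.27. Groups that did not overlap were again a condition of the choice. Relative log2 values ranged from -1.20 to -2.01 over the set of 12, which also holds Ifit3b, Rsad2, Ifit3, Phf11a, Fam78b, Cd300ld3 and Adap2.

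The interferon response list was lower as a group. Of its 30 members, all tested, 24 had both knockouts below both controls (80.0%, beside 45.5% of all genes) and 0 had both above. The median relative log2 difference was -0.56, where the median gene is 0 by construction, and it was -0.53 both with the lean and after quantile normalization. Members were less uniform with the lean: 22 lay below the median gene and 8 above, beside 28 and 2 without it. None of the 30 passed the adjusted test, and 15 had an unadjusted p under 0.05, all lower. Of all 13126 genes tested, 1427 reached that level lower than the median gene and 483 higher. Rsad2, the antiviral enzyme viperin, was at 11.3 and 14.8 TPM in the controls and 3.27 and 3.28 in the knockouts (relative log2 -1.58, SE 0.20, adjusted p = 0.298). Ifit3, an antiviral RNA-binding family member, was at 40.3 and 54.9 TPM against 14.9 and 13.2, and its copy Ifit3b at 7.92 and 9.11 against 2.21 and 2.17. These 2 are near-identical copies, so their separate levels are uncertain. Ddx58, which encodes the viral RNA sensor RIG-I, was at 31.9 and 34.7 TPM against 16.98 and 17.7, and Ifit1 at 9.85 and 14.6 against 5.07 and 5.26. Control 2 was the higher control in each of these 5 genes. Leaving out control 1 moved the list's median to -0.79, and leaving out control 2 moved it to -0.36. Members at the other end were Gbp2, with 25.7 and 42.2 TPM against 26.7 and 59.9, and Ifi47, with 59.8 and 87.0 against 58.3 and 92.6; both are targets of interferon gamma, and their groups overlapped.

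**Figure D4:**
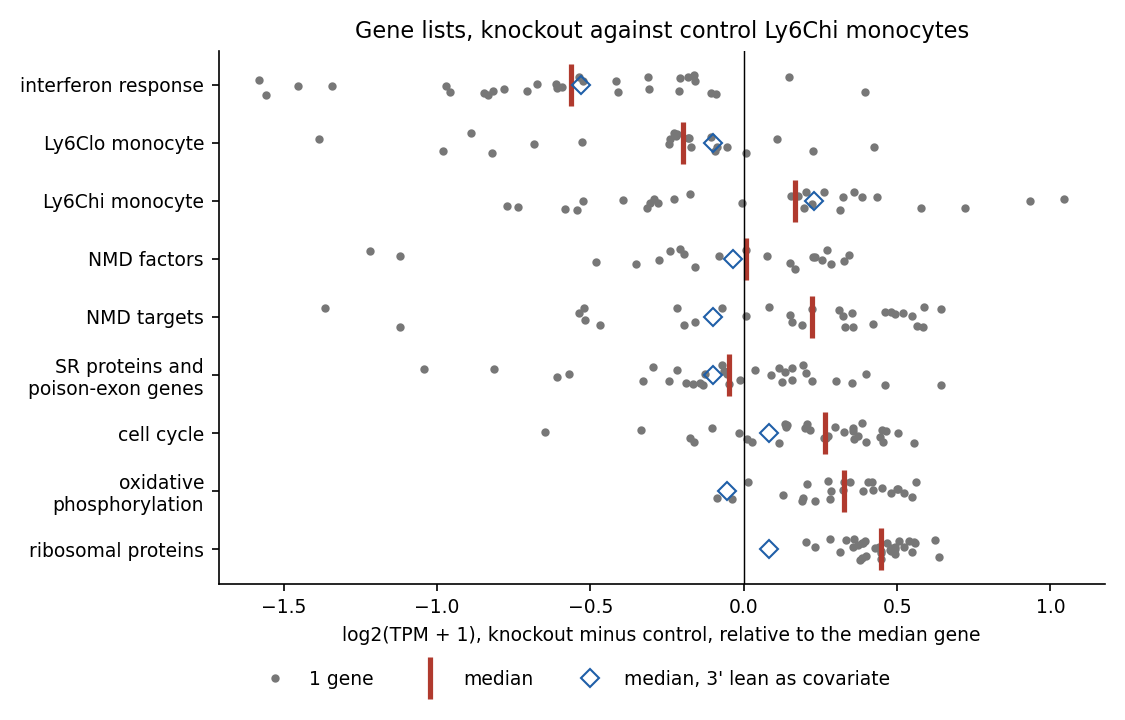
Difference of log2(TPM + 1), knockout minus control, relative to the median gene (horizontal axis) for each tested gene (grey points) of 9 lists (rows), with the list's median (red bar) and its median with the lean as a covariate (blue diamond). The interferon response median stays near -0.5 on both, while the medians of ribosomal proteins (0.45 to 0.08) and oxidative phosphorylation (0.33 to -0.06) shrink or turn.

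Most genes of the translation and respiration lists lay above both controls in both knockouts, though none passed the test, and their medians came near 0 with the lean. Of 34 cytosolic ribosomal protein genes, 33 had both knockouts above both controls (97.1%) and 0 had both below, beside 22.8% and 45.5% of all genes. Their median relative log2 of 0.45 came to 0.08 with the lean and 0.11 after quantile normalization. Rps2, a protein of the small subunit, was at 1532 and 1548 TPM in the controls and 2345 and 2034 in the knockouts. Of 25 oxidative phosphorylation genes, 20 had both above and 3 both below; the median was 0.33 and turned to -0.06 with the lean. Ndufa4, a cytochrome c oxidase subunit, was at 331 and 317 TPM against 460 and 413. The 16 tested snoRNA host genes, whose spliced RNAs are textbook NMD substrates, had both knockouts above in 10 (62.5%) and below in 2 (12.5%). Their median of 0.43 turned to -0.21 with the lean. Among them Snhg1 was at 70.2 and 69.9 TPM against 116 and 81.0, and Gas5 at 261 and 286 against 372 and 305. In none of these lists did a gene pass the adjusted test.

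The difference also went with the length of the transcript. Over the 11071 tested genes with a length (84.3%), the median relative log2 was 0.25 among the shortest of 4 equal classes of transcripts (up to 1915 bases), 0.08 and -0.07 in the middle classes, and -0.29 in the longest (4541 to 40378 bases). With the lean as a covariate the 4 medians were 0.01, 0.01, 0.00 and -0.03. Both knockouts lay below both controls in 77.0% of the longest class and in 18.04% of the shortest. They lay above both controls in 5.02% of the longest class and in 51.1% of the shortest.

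**Figure D5:**
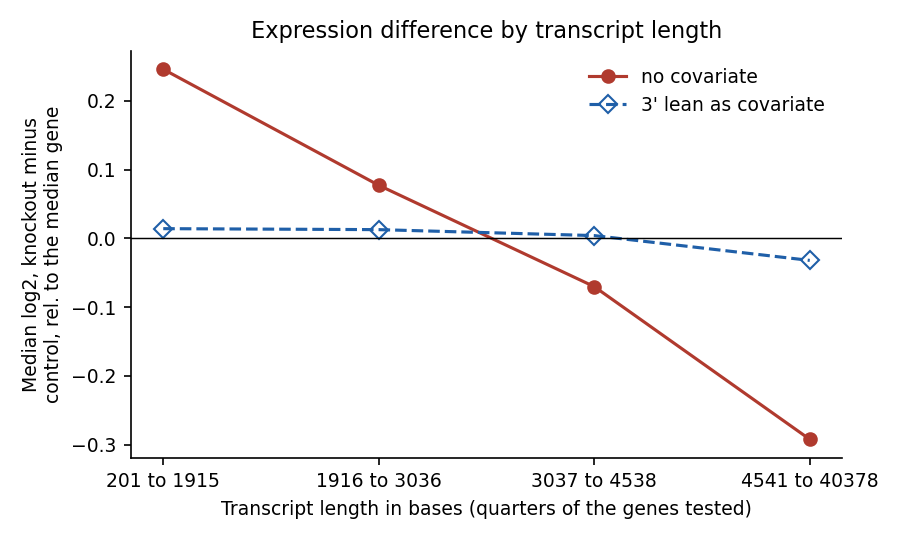
Median difference of log2(TPM + 1), knockout minus control, relative to the median gene (vertical axis) by class of transcript length in bases, 4 classes of about equal size (horizontal axis), without a covariate (red) and with the 3′ lean as a covariate (blue, dashed). The red line runs from 0.25 to -0.29 and the blue line lies between 0.01 and -0.03.

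Levels of the NMD machinery went both ways. Of its 21 factors, 8 had both knockouts above both controls (38.1%) and 10 both below (47.6%), beside 22.8% and 45.5% of all genes, and the median relative log2 was 0.01, or -0.03 with the lean. Xrn1, the 5′ exonuclease that finishes decay, was at 15.7 and 14.7 TPM in the controls and 4.45 and 6.47 in the knockouts (relative log2 -1.22, SE 0.37, adjusted p = 0.336; -0.46 with the lean). Smg1, the kinase that phosphorylates UPF1, was at 49.2 and 41.1 TPM against 12.99 and 26.1, and its relative log2 of -1.12 came to -0.14 with the lean. Smg5, an adaptor of phosphorylated UPF1, was at 61.8 and 61.9 TPM against 45.1 and 54.4. Upf1 overlapped between groups, with 48.9 and 44.2 TPM against 43.1 and 52.3, and so did the UPF2 partner Upf3b, with 18.7 and 14.9 against 14.4 and 16.3. Upf3a was at 31.3 and 30.9 TPM against 34.6 and 32.5, the exon junction factor Rnps1 at 103 and 105 against 119 and 124. The endonuclease Smg6 was at 14.9 and 14.4 TPM against 11.4 and 12.5. None of the 21 passed.

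Known NMD targets also went both ways. Of 31 tested genes on a list from background knowledge, 9 had both knockouts above (29.0%) and 10 both below (32.3%). The shares over all genes were 22.8% and 45.5%. The list's median of 0.22 turned to -0.10 with the lean. Tra2a, a splicing activator with a poison exon, was at 71.6 and 72.6 TPM in the controls and 107 and 101 in the knockouts (relative log2 0.64, SE 0.13, adjusted p = 0.336). Ern1, the stress sensor IRE1, was at 83.0 and 60.6 TPM against 19.4 and 31.2. Eif4a2, a translation initiation helicase, was at 433 and 353 TPM against 250 and 251. The 33 SR proteins and other factors with poison exons had 5 above (15.2%) and 18 below (54.5%), beside 22.8% and 45.5% of all genes, with a median of -0.05. Srsf5 was at 524 and 604 TPM against 326 and 353, and Son, a splicing cofactor of nuclear speckles, at 168 and 153 against 94.1 and 104. Of 8 tested Clk and Srpk kinases, which phosphorylate SR proteins, and O-GlcNAc enzymes, 0 were above and 7 below (87.5%, beside 45.5% of all genes). Ogt, whose level depends in part on a retained intron, was at 162 and 130 TPM against 49.9 and 79.6. The median of these 8 was -0.16, or 0.01 with the lean.

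The labelled cell type was checked against its markers. Ly6c2, which encodes Ly6C, was at 3439 and 4057 TPM in the controls and 4472 and 4817 in the knockouts, and all 28 table entries for Ly6Chi monocyte markers were tested, 8 with both knockouts above (28.6%) and 13 with both below (46.4%), beside 22.8% and 45.5% of all genes. Ccr2, the chemokine receptor for exit from bone marrow, was at 1401 and 1357 TPM against 656 and 883 (adjusted p = 0.336), and Irf8, a transcription factor of monocyte fate, at 310 and 268 against 169 and 195. Chil3, a secreted chitinase-like protein, was at 2532 and 2132 TPM against 4699 and 4144. With the lean the relative log2 of Ccr2 went from -0.73 to -0.17 and that of Chil3 from 1.05 to 0.07. Of 22 tested markers of Ly6Clo monocytes, 0 had both knockouts above and 14 both below (63.6%), beside 22.8% and 45.5% of all genes. Their median was -0.20 (-0.10 with the lean). Adgre4, a receptor of the adhesion family, was at 41.6 and 32.1 TPM against 16.5 and 16.5, and the fractalkine receptor Cx3cr1 at 253 and 233 against 74.3 and 96.7. Pparg, a lipid-sensing nuclear receptor, was at 2.28 and 2.72 TPM against 0.96 and 1.04.

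Markers of other cells were low or mixed. Their counts above and below stand beside 22.8% of all genes with both knockouts above both controls and 45.5% with both below. The 12 T and NK cell markers summed to 1.42 and 1.36 TPM in the controls and 0.76 and 0.92 in the knockouts, and none reached the level needed for the test. The 16 neutrophil markers summed to 1861 and 2266 TPM against 2667 and 2010, with 1 of 15 tested above and 2 below. The B and plasma cell markers summed to 527 and 535 TPM against 390 and 395, with 1 of 7 above and 4 below. Dendritic cell markers summed to 135 and 178 TPM against 113 and 112, with 0 of 8 above and 3 below, Cd209a among them. Macrophage markers summed to 228 and 233 TPM against 228 and 208, with 1 of 9 above and 6 below. The 11 erythroid markers summed to 40.4 and 193 TPM against 51.0 and 71.7, with 1 of 5 tested above and 0 below. The 10 eosinophil, basophil and mast cell markers summed to 18.03 and 28.99 TPM against 12.4 and 13.2, with 0 of 6 tested above and 5 below. The part of such cells in the lower interferon, Ly6Clo and dendritic genes was not tested.

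Intron retention was compared last, because the tables of the 2 groups were not made alike. The knockout tables list 204370 introns and mark 35997 of the shared ones for an antisense gene, while the control tables list 205984 and mark none; 204362 introns are in all 4 tables. Introns with at least 10 boundary reads in both knockouts and at most 2 in both controls were 52 of 166494 unmarked introns (0.312 per 1000), 109 of 21682 with an antisense gene nearby (5.03 per 1000) and 184 of 12506 with one overlapping (14.7 per 1000). At introns that hold a known exon and have an antisense gene both near and overlapping, it was 86 of 1022 (84.1 per 1000). The reverse pattern, boundary reads in the controls alone, was found at 108, 1, 3 and 0 introns of these 4 classes. Spliced reads in the knockouts alone were rarer, at 5, 2, 5 and 0 introns (0.03, 0.09, 0.40 and 0 per 1000). A higher boundary count in the knockout and the way its tables were counted cannot be told apart, so marked introns were left out of the test.

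Over the 39481 introns tested, the ratio of boundary to spliced reads was lower in the knockout by a median log2 of -0.32. This shift turned to 0.17 with the lean and was 0.02 after TMM scaling of boundary and spliced reads apart. That scaling takes out an overall shift by design, so its median near 0 does not measure one. Both knockouts lay above both controls at 9.04% of the introns and below at 40.4%. By the deposited retention ratio, of 83198 introns 5.90% and 5.56% had a ratio of at least 0.1 in the controls (mean 5.73% ± 0.237, SD, n = 2) and 3.11% and 3.69% in the knockouts (mean 3.40% ± 0.407, SD, n = 2; exact permutation test, two-sided, p = 0.333, the smallest possible). Restricted to the 22399 introns with no warning in any library, the means were 3.06% in the controls and 2.34% in the knockouts. Coding introns whose length is a multiple of 3, which can be read through without a shift of frame, had an unshifted median of -0.33 (11712 introns), and so had the others (23426 introns). Introns in the 5′ untranslated region had a median of -0.17 and those in the 3′ untranslated region -0.27. Introns of the interferon response genes had -0.57 (129 introns). NMD factor introns had -0.39 (127 introns) and those of SR proteins and poison-exon genes -0.36 (237 introns). Relative to the median intron, the medians of these lists were -0.25, -0.065 and -0.035, in the same order. With the lean they were -0.12, 0.11 and 0.34 unshifted. The medians of the coding and untranslated groups were 0.11 to 0.20 with the lean.

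A single intron passed edgeR's test for retention (0.00253%), and 2995 had an unadjusted p under 0.05. It lies in the 5′ untranslated region of Cpsf2, a subunit of the complex that cleaves pre-mRNA at its 3′ end (chr12:101976135-101981913). Boundary reads numbered 1 and 3 in the controls and 156 and 161 in the knockouts, beside 110 and 115 spliced reads against 82 and 101. The log2 ratio relative to the median intron rose by 6.85 (SE 0.53, adjusted p = 0.012), but the reads cross almost only the left boundary, with 0 and 2 against 156 and 160, so the whole intron is not shown to be retained. The call did not hold with the lean (log2 6.05, adjusted p = 0.172). The next introns by p had the same form, with boundary reads nearly absent from the controls: Sfi1, a centrosomal protein, had 1 and 1 against 46 and 51, Iffo2 had 0 and 1 against 82 and 67, and Fancl, a ubiquitin ligase of the Fanconi anaemia pathway, had 0 and 1 against 35 and 32 (adjusted p from 0.0589 to 0.0726). Adssl1, Ankhd1, Atad2b and Haus1 completed the 8, with adjusted p up to 0.136. In Sfi1 the 2 boundaries had nearly equal reads, while in Fancl and Ankhd1 the smaller one had 0.

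The introns lower in the knockout had smaller differences. In Fn1, fibronectin, an intron at chr1:71600467-71601200 had 82 and 92 boundary reads in the controls and 6 and 14 in the knockouts, beside 10300 to 19428 spliced reads (relative log2 -2.09, SE 0.37, adjusted p = 0.170). Fnbp1, which bends membranes in endocytosis, had 82 and 44 against 3 and 9, at 35 to 36 spliced reads in the controls. Ap1s2, Herc4, Itgb7, Map4k1 and Scarb2 followed, with adjusted p from 0.568 to 0.639. None of these introns, which were chosen by smallest p, overlapped between groups.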

How the data were processed

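The 8 libraries were sequenced from polyadenylated RNA with a strand-specific kit, per the labels' protocols, and the 4 of Ly6Chi monocytes were compared here. The submitters' processing notes name FastQC, Trimmomatic, STAR 2.5.2a and RSEM, and the builds mm10 and hg38; which tool counted the intron tables is not given in these sources. The expression table was deposited by the authors under the name FPKM, but each column sums to the same total of 1000000 or within rounding of it, so its values were treated as TPM (transcripts scaled to that total), as the planned test for FPKM allows. The intron tables hold, as deposited by the authors, counts of exact spliced, left-end and right-end spliced and boundary reads per intron, a coverage depth of the intron, and a retention ratio given as a fraction. Of the introns, 99.91% matched GENCODE M21.

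TPM were tested with limma 3.58.1 on log2(TPM + 1), for genes of at least 1 TPM in 2 libraries. Counts were tested with edgeR 4.0.16 (quasi-likelihood, R 4.3.3): boundary against spliced reads for retention, and exact reads against other reads at the same ends for splice choice, with at least 20 reads. All 8 libraries entered each fit, so the groups share 1 estimate of spread, with 3 residual degrees of freedom. P-values were adjusted by Benjamini-Hochberg over all features tested, with a threshold of 0.05. The functions were tested on simulated data. Each named list is described by counts and medians, with no test of the list. The members and lists were chosen with earlier results of these data known. Named features were Upf2 and the 12 genes of smallest p in each direction, among genes whose groups did not overlap. The higher group of each of these 12 also had to reach a set mean level. For splice choice they were 12 introns of smallest p (1 per gene, with the introns of listed splicing factors that passed). For retention they were 8 introns in each direction. Alternatives were DESeq2 1.42.0, other scalings and filters, a replicate block, the 3′ lean and each replicate left out. A member of the named set of introns and a member of the NMD factors are not reported here.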

Additional observations from a re-analysis of the deposited data

How the results depend on the processing

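All 3 counts of calls depended on the processing; the cause was not tested unless the setting itself removed samples or features. For expression, where limma called 1 gene, quantile normalization gave 3 calls, and a pseudocount of 0.1, the 4 compared libraries alone, the lean as a covariate, the replicate block and a crossed replicate block each gave 0, with 1641, 4353, 643, 1327 and 3045 genes at an unadjusted p under 0.05. Leaving out each replicate gave 0 throughout (453 to 4385 at an unadjusted p under 0.05). For retention, where edgeR called 1 intron, scaling boundary and spliced reads apart by TMM gave 105 (89 higher and 16 lower), DESeq2 20, no filter 133 (60 higher and 73 lower), the 4 libraries alone 549 (78 higher and 471 lower), and the 3 introns nearest the 3′ end 2. The replicate block, the smaller boundary count and the lean each gave 0, with 2322, 1663 and 1255 at an unadjusted p under 0.05. Leaving out a replicate gave 0 to 376; without cMoP 1 it was 322 and without cMoP 2 it was 376. For splice choice, where edgeR called 60, DESeq2 gave 8, no filter 96, the 4 libraries alone 516, the replicate block 36 and the lean 9. Leaving out a replicate gave 7 to 484: 484 and 483 without cMoP 1 or 2, 7 and 10 without control 1 or 2, and 10 and 12 without knockout 1 or 2. Medians were recomputed for 11 lists. With the lean those of oxidative phosphorylation (-0.055), snoRNA host genes (-0.21), NMD targets (-0.10) and NMD factors (-0.034) turned negative and that of Clk and Srpk kinases turned positive (0.0085). The NMD factor median, near 0, was also -0.10 with no filter and -0.11 to 0.10 without a replicate. The Ly6Chi marker median was -0.15 after quantile normalization and -0.0092 to 0.18 without a replicate, with the lowest value without control 1. Of the other values of these medians, 138 stayed within the spread and 17 moved with no change of sign. Lists outside these 11 turned negative with the lean too, among them the exon junction complex (0.29 to -0.09) and the core spliceosome (0.22 to -0.13). Same-numbered libraries shared only a number: their deviations correlated at -0.13 for expression, -0.05 for retention and -0.04 for splice choice, and the crossed pairing was chosen after seeing the data. The exact tests of 2 against 2 cannot go below p = 0.333, and their differences kept their sign in every alternative run (Upf2 share -33.1 to -45.2 percentage points, retained share -0.65 to -5.26).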
